A study of Rattus norvegicus with 10 samples.

Results

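The release of neurotransmitter from synaptic vesicles was examined through 73 genes of the vesicle fusion machinery and related proteins in the hippocampus of young rats. A probe set, the group of array probes that together report 1 transcript, was taken as a member when it carried exactly 1 gene symbol starting with Syt, Stx, Stxbp, Vamp, Snap, Cplx, Rab3 or Rims followed by a digit, or was annotated to Syn1, Syn2, Syn3, Syp, Sv2a, Sv2b, Sv2c, Unc13a, Unc13b, Unc13c, Bsn, Pclo or Nsf. This gave 110 of the 31042 probe sets left after 57 control probe sets were removed, for 73 of 14217 genes. Read by its letters, the rule also takes 11 genes from Rab30 to Rab39a, small GTPases of other transport steps, and leaves out Rab3a to Rab3d, which are counted with the other release genes. The names cover syntaxins and other SNAREs of the Golgi and endosomes as well as those of the synapse.

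Hippocampal RNA of 10 male Wistar rats was measured on Affymetrix rat genome arrays, 1 array per rat. After acclimatization on powdered feed, 5 rats were given solid chow (C-group) and 5 the powdered diet (P-group) for 8 days, and all were labeled as 4 weeks old. The rats carried no genetic modification in the labels, and both groups drank and ate freely. The values are of whole, manually dissected tissue, in which fewer cells of a type and less RNA per cell cannot be told apart.

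Neurons store transmitter in vesicles that are docked and primed at the active zone. Fusion is driven by SNARE proteins, with a vesicle SNARE of the Vamp family pairing with syntaxin and Snap25 on the plasma membrane, and it is triggered when calcium binds a synaptotagmin. Complexins clamp and assist the assembled SNAREs, Munc13 and RIM proteins prime the vesicles, and the ATPase Nsf takes the spent complexes apart for another round. In the hippocampus these steps set the strength and short-term plasticity of synapses.

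The promoters of Nsf, Rims1, Sv2b and Syn2 are shown because these genes carried members whose levels followed each other over the rats, as described further on. Each stretch holds the 250 bases before and 50 bases after the RefSeq start of the gene, is 300 bases long, and is read 5′ to 3′ on the strand of the gene in build GRCr8. The stretches lie at chr10:89357334-89357633 (minus strand) for Nsf, chr9:32692723-32693022 (minus) for Rims1, chr1:138562209-138562508 (minus) for Sv2b and chr4:149858669-149858968 (plus) for Syn2. Capitals mark each GC box (GGGCGG, or CCGCCC on the other strand).
Nsf: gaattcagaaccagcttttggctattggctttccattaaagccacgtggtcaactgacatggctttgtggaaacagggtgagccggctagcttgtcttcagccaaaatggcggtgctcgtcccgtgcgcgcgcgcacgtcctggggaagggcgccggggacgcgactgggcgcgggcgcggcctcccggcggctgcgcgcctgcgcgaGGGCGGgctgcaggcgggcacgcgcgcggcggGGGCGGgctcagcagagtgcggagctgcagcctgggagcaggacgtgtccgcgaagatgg
Rims1: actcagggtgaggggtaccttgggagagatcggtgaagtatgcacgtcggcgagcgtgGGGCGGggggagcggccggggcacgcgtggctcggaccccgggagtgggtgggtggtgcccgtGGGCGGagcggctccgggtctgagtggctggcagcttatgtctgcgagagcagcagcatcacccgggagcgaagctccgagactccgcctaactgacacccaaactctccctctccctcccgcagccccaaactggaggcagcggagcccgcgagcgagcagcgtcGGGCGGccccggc
Sv2b: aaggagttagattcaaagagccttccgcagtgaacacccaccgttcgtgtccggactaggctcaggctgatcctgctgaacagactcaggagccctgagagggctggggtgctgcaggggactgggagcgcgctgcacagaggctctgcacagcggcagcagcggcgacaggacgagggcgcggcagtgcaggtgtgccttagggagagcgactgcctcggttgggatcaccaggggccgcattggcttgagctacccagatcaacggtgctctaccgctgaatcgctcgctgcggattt
Syn2: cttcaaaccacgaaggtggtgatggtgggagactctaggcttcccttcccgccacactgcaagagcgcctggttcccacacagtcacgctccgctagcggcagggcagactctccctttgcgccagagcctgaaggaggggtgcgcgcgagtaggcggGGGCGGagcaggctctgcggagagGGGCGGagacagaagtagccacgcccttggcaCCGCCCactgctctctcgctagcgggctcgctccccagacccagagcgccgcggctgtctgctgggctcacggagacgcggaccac

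On both strands, 5 short motifs were searched, the GC box GGGCGG, the cyclic AMP response element TGACGTCA, the parts TTCAGCACC and GGACAGCG of the repressor element RE1, and the core GCATGCGC of an NRF1 site, and none of these letters overlapped another motif in the printed stretches. Of the 4 printed promoters, Nsf held 2 GC boxes, Rims1 and Syn2 3 each and Sv2b none. The other motifs did not occur in them. A promoter was in the RefSeq table for 57 of the 73 member genes, and 68.4% of these held a GC box against 34.9% of all 27457 promoters, with a median GC content of 64.3% against 52.3%. The cyclic AMP response element occurred in Syn1 and Vamp1 only among the members (3.51%, against 1.91% of all promoters), the NRF1 core in 10.5% (2.66% of all), and the RE1 parts in 1.75% and 8.77% (0.379% and 1.28% of all). These are matches of letters and were not tested as binding sites.

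The authors' normalization, qFARMS, holds a probe set nearly constant when its probes do not vary together, so that a probe set was called variable here when its standard deviation (SD) over the 10 rats was above 0.01 log2 units. Of the 110 members, 21 (19.1%) were variable, for 17 genes, against 2904 (9.36%) of all probe sets. The median SD of the 21 was 0.237 log2 units, close to the 0.219 of all variable probe sets. The other 89 members had an SD of at most 0.00067, and their group means differed by at most 0.00048, so they say nothing on a difference between rats. All 13 hippocampal neuron markers were measured, and 10 had a variable probe set. The dentate gyrus gene Prox1 had a mean of 9.53 in the C-group and 9.55 in the P-group, and the calls of this list are given with the other marker lists. Rat C1 stood apart on these arrays, with the highest value of the 10 rats in 53.5% and the lowest in 22.1% of all variable probe sets.

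Much of the core release machinery was among the constant probe sets. The plasma membrane SNARE Snap25 had a log2 value of 12.63, the vesicle SNARE Vamp2 values of 10.74 and 6.10 at its 2 probe sets, and synaptophysin (Syp), an abundant vesicle membrane protein, 11.19, in each group. Cplx1 (11.09 and 8.29), Cplx2 (10.73), the priming factor Unc13a (7.26) and Rims2 (7.15) were constant as well. All 22 probe sets of SNAREs of other compartments, such as Stx5 to Stx8 of the Golgi and endosomes, and all 6 of Vamp1, Vamp2 and Vamp3 were constant. Variable members came from 4 of 7 genes of vesicle proteins, 4 of 16 synaptotagmins, 3 of 8 genes of priming and the active zone, 2 of 4 syntaxin-binding proteins, and 1 gene each of the complexins, the plasma membrane SNAREs, the group of Nsf and Snap91, and the Rab GTPases. For 10 of the 17 genes a further probe set was constant, and for 3 of these, Nsf, Syn1 and Pclo, it was the brightest of the gene.

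**Figure D1:**
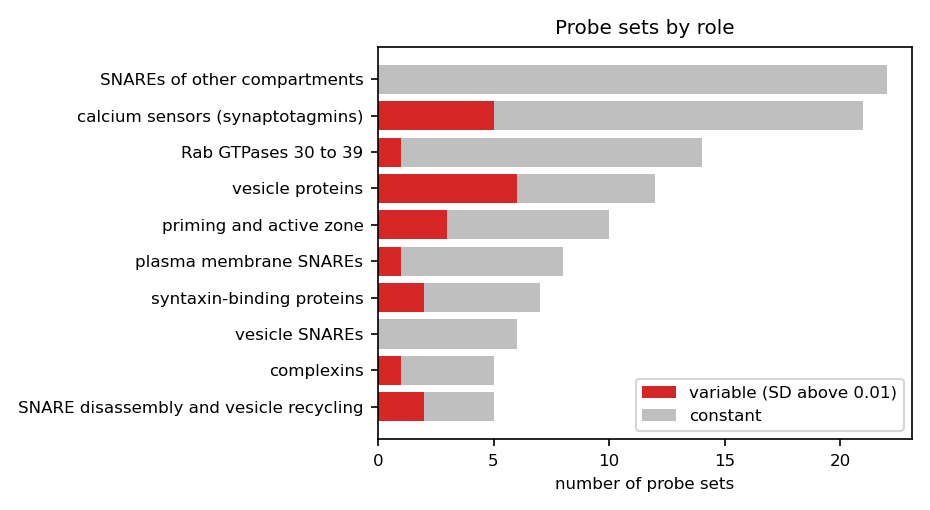
Number of probe sets (horizontal axis) of the 110 members by role of the gene (vertical axis), red for the variable and grey for the constant ones. Vesicle proteins had 6 variable of 12 probe sets, and the 22 of SNAREs of other compartments had none.

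Between the diets, no member passed limma, which weighs a difference against the variation among rats of the same diet. The adjusted p of the 21 variable members ran from 0.927 to 0.987 (limma, Benjamini-Hochberg over all 31042 probe sets), and 0.0% of all probe sets passed. At an unadjusted limma p under 0.05 there was none of the 21, against 1.14% of all variable probe sets, and of the constant members 1, Rims2, with a difference of 0.00025. This count of 0 among the variable members was 1 without C3 and 2 without P1. The groups overlapped in each of the 21, and did not overlap in 0.207% of all variable probe sets.

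Rank products, the method of the study, ranks the size of the differences between the groups over all probe sets without regard to the spread of each, and calls a probe set at a false discovery rate (FDR) under 0.05. It called 5 members higher in the C-group, both variable probe sets of Nsf and 1 each of Sv2b, Syn2 and Stxbp3, and 1 lower, Cplx3. Of all 31042 probe sets, 2.01% were called higher and 0.409% lower, all of them variable. Among the variable probe sets the shares were 23.8% of the members against 21.5% of all for higher and 4.76% against 4.37% for lower, shares near those of the background. The difference between the group means was above 0 in 15 of the 21 members (71.4%), against 68.3% of all variable probe sets, with a median of 0.04 log2 units against 0.07. That order of the medians turned with the rats included, since the median of the members was above that of all variable probe sets in 8 of the 10 sets with 1 rat left out, as without C3 (0.11 against 0.09) or P1 (0.10 against 0.07). When rank products was run over the variable probe sets alone, it called 6 of 2904 higher, none lower, and no member.

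Without C1, no member was called in either direction, the median difference was 0.02 log2 units against 0.04 for all variable probe sets, and 15 of the 21 differences were above 0. The calls of higher members were not lost without C1 only. Without C2 or C4 no member was called higher either, while 1 and 2 members were called lower. The share of all probe sets called with a rat left out is not given here. These losses and gains of calls can therefore not be read as particular to the members. C1 had the highest value in 12 of the 21 members (57.1%) and the lowest in 4 (19.0%), shares near those of all variable probe sets. P5 had the lowest value in 6 of them (28.6%, against 15.3%).

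**Figure D2:**
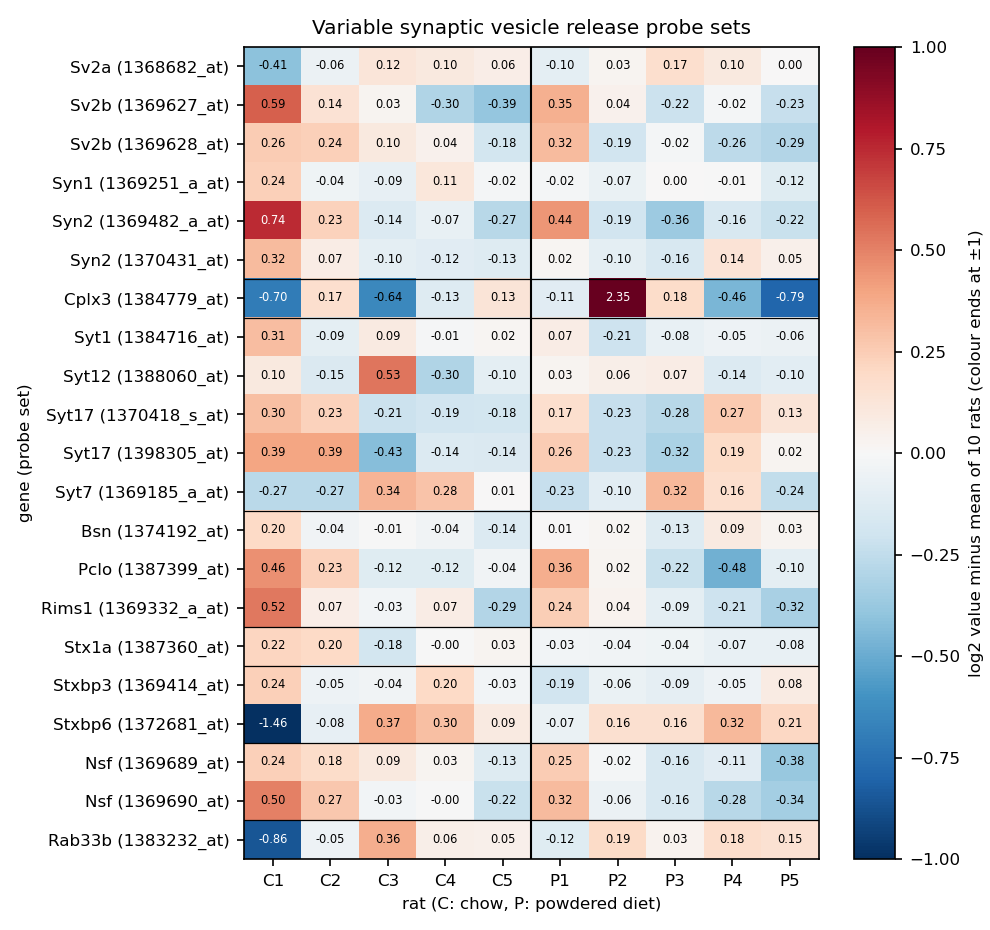
Log2 value of each of the 21 variable probe sets minus its mean over the 10 rats, printed in each cell and shown by color (red above, blue below the mean). Columns are rats C1 to C5 (C-group) and P1 to P5 (P-group), and horizontal lines part the roles in the order of vesicle proteins, complexins, synaptotagmins, active zone, plasma membrane SNARE, syntaxin-binding proteins, Nsf and Rab33b. C1 is red in most rows and dark blue for Stxbp6 and Rab33b, and the strongest red is Cplx3 in P2.

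Among the vesicle proteins, Sv2b, a transporter-like glycoprotein of the vesicle membrane, was called higher at its brighter probe set. Its log2 values were 12.13, 12.11, 11.97, 11.91 and 11.69 in C1 to C5 and 12.19, 11.68, 11.85, 11.61 and 11.58 in P1 to P5. The C-group thus lay near or above 11.7, but the highest rat of all was P1. The means were 11.96 ± 0.18 (SD, n = 5 rats) and 11.78 ± 0.25 (SD, n = 5), 0.18 apart (standard error, SE, 0.13, FDR 0.0347). The call was lost without C1, C2, C3, C4, P2, P4 or P5 (FDR 0.0953, 0.101, 0.0861, 0.0858, 0.0681, 0.0858 and 0.0875), and without P1 the difference was 0.28. The dimmer probe set of Sv2b had 10.03, 9.58, 9.47, 9.14 and 9.04 in the C-group and 9.79, 9.48, 9.22, 9.41 and 9.20 in the P-group, a difference of 0.03 (SE 0.20). At this probe set the C-group held both the highest and the lowest rats.

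Synapsins coat vesicles and hold them in the reserve pool. For Syn2, the called probe set was 10.06, 9.54, 9.18, 9.24 and 9.04 in the C-group and 9.76, 9.12, 8.95, 9.15 and 9.09 in the P-group. C1 and P1 were the highest rats of their groups and the other 8 lay between 8.95 and 9.54. The difference was 0.20 (SE 0.22, FDR 0.0280), and it was 0.04 without C1, 0.33 without P1 and 0.13 without P3. The call was lost without C1, C2, C4 or P3 (FDR 0.178, 0.0873, 0.0693 and 0.112). The second variable probe set of Syn2 had means of 9.66 ± 0.19 (SD, n = 5) and 9.64 ± 0.12 (SD, n = 5), a difference of 0.02 (SE 0.10), and a further one was constant.
Syn1 was 8.99, 8.71, 8.67, 8.87 and 8.73 in the C-group and 8.73, 8.68, 8.75, 8.74 and 8.63 in the P-group, with a difference of 0.08 (SE 0.06) that was not called. Only C1 and C4 lay above all rats of the P-group. Sv2a, the vesicle protein known as the target of levetiracetam, was 9.48, 9.83, 10.01, 9.99 and 9.95 in the C-group and 9.79, 9.92, 10.06, 9.99 and 9.90 in the P-group. The difference of -0.08 (SE 0.10) was 0.02 without C1, the lowest rat.

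Nsf was called higher at both of its variable probe sets. The brighter one was 11.37, 11.14, 10.84, 10.87 and 10.65 in C1 to C5 and 11.19, 10.81, 10.71, 10.59 and 10.53 in P1 to P5. C1, P1 and C2 were the 3 highest rats and P5 the lowest. The means were 10.97 ± 0.28 (SD, n = 5 rats) and 10.77 ± 0.26 (SD, n = 5), a difference of 0.21 (SE 0.17, FDR 0.0306), which was 0.11 without C1 and 0.31 without P1. The call was lost without P4, P5, C1, C2, C3 or C4 (FDR 0.0725, 0.0812, 0.127, 0.0947, 0.0594 and 0.0758).
The other variable probe set of Nsf was 10.35, 10.29, 10.21, 10.14 and 9.99 in the C-group and 10.36, 10.09, 9.95, 10.001 and 9.73 in the P-group. The order of the rats was similar, with P1 and C1 highest and P5 lowest. The difference was 0.17 (SE 0.12, FDR 0.0476), and it was 0.25 without P1, 0.09 without P5. Of the 10 sets with 1 rat left out, only that without P1 kept the call (FDR 0.00863), and in the others the FDR ran from 0.0508 to 0.164. A further probe set of Nsf, at 11.22 and brighter than both, was constant.

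Syntaxin-binding proteins hold syntaxins closed or compete for them. Stxbp3, the Munc18 protein that pairs with Stx4, was 9.41, 9.13, 9.14, 9.37 and 9.15 in the C-group and 8.98, 9.11, 9.09, 9.13 and 9.26 in the P-group. C1 and C4 were above every rat of the P-group and the other 3 were within its range. The difference was 0.13 (SE 0.07, FDR 0.0285). Of the variable members this was the smallest unadjusted limma p, 0.119 (adjusted p = 0.927). The call was lost without C1, C2 or C4 (FDR 0.0943, 0.0667 and 0.108), with a difference of 0.09 without C1.
Stxbp6, or amisyn, which competes with the vesicle SNARE for the syntaxin complex, was 8.51, 9.88, 10.33, 10.26 and 10.05 in the C-group and 9.89, 10.12, 10.12, 10.28 and 10.17 in the P-group. C1 was far below the other 9 rats. The difference was -0.31 (SE 0.33), the second largest in size, and 0.01 without C1. Rab33b, a GTPase of the Golgi, had a like pattern, at 7.80, 8.61, 9.02, 8.72 and 8.72 in the C-group and 8.54, 8.85, 8.70, 8.84 and 8.81 in the P-group, and its difference of -0.17 (SE 0.21) was 0.02 without C1. Neither was called over all 10 rats, but Stxbp6 was called lower without C3 or C4 (FDR 0.00594 and 0.0183) and Rab33b without C3 (FDR 0.0329).

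At the active zone, where vesicles fuse, Rims1, Pclo and Bsn were variable. Rims1, the scaffold that joins Rab3 on the vesicle to calcium channels, was 8.16, 7.70, 7.60, 7.70 and 7.34 in the C-group and 7.88, 7.67, 7.54, 7.43 and 7.31 in the P-group. C1 was highest and C5 and P5 lowest. Its difference of 0.14 (SE 0.16, FDR 0.0854) was 0.02 without C1. Piccolo (Pclo) was 7.13, 6.90, 6.55, 6.55 and 6.64 in the C-group and 7.04, 6.70, 6.45, 6.19 and 6.57 in the P-group, with a difference of 0.16 (SE 0.17, FDR 0.0617), 0.07 without C1 and 0.06 without P4. Again C1 and P1 were the highest rats. Bassoon (Bsn), the other giant scaffold, was 10.93 ± 0.13 (SD, n = 5) and 10.94 ± 0.08 (SD, n = 5), a difference of -0.0078 and a 95% confidence interval from -0.16 to 0.14.

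Of the plasma membrane SNAREs, Stx1a, the syntaxin of synapses, was 8.86, 8.84, 8.46, 8.64 and 8.67 in the C-group and 8.62, 8.61, 8.60, 8.58 and 8.57 in the P-group. The P-group rats lay within a narrow span, with an SD of 0.02 against 0.16 in the C-group. The difference was 0.10 (SE 0.07, FDR 0.0706) and was not called over all 10 rats. Single omissions also gave calls for members that were not called with all rats, higher for Stx1a without C3, for Rims1, Pclo and Syt1 without P1, and for Pclo without P2.

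Some synaptotagmins sense the calcium that triggers fusion. Syt1, the sensor of fast release, was 8.80, 8.40, 8.58, 8.48 and 8.51 in the C-group and 8.56, 8.28, 8.41, 8.44 and 8.43 in the P-group. The difference of 0.13 (SE 0.08, FDR 0.0696) was not called and was 0.06 without C1. Only C1 and C3 lay above all rats of the P-group. Syt7, linked to slow and facilitated release, was 7.16, 7.16, 7.77, 7.71 and 7.44 in the C-group and 7.20, 7.33, 7.76, 7.60 and 7.19 in the P-group, a difference of 0.04 (SE 0.17). Each group held rats near 7.2 and rats near 7.7. Syt12 had means of 7.396 ± 0.32 (SD, n = 5) and 7.36 ± 0.10 (SD, n = 5), with C3 highest at 7.91, and a difference of 0.03 (SE 0.15).
Syt17 had 2 variable probe sets. The brighter one was 9.16, 9.09, 8.64, 8.67 and 8.68 in the C-group and 9.03, 8.63, 8.58, 9.12 and 8.99 in the P-group, and the dimmer one 8.31, 8.32, 7.50, 7.79 and 7.78 in the C-group and 8.18, 7.69, 7.60, 8.11 and 7.95 in the P-group. At both, C1, C2, P1, P4 and P5 were above the other 5 rats, so the spread was within the groups and not between them. The differences were -0.02 (SE 0.15) and 0.03 (SE 0.19).

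**Figure D3:**
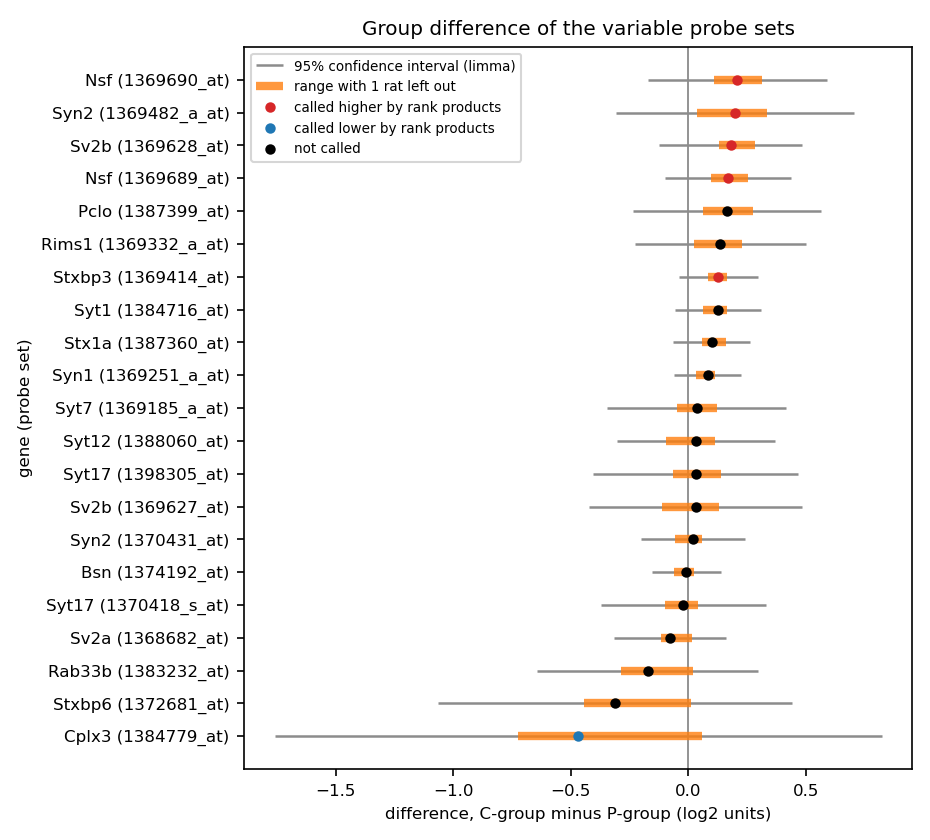
Difference between group means (C-group minus P-group, log2 units, horizontal axis) for the 21 variable probe sets, with 95% confidence intervals from limma in grey and the range of the difference with 1 rat left out in orange. Red and blue points were called higher and lower by rank products. Every interval spans 0, and the orange range also spans 0 for 11 of the 21.

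Complexin 3 (Cplx3), known from the ribbon synapses of the retina, had the largest difference and the largest spread of the members. It was 5.90, 6.77, 5.96, 6.47 and 6.73 in the C-group and 6.49, 8.95, 6.78, 6.14 and 5.81 in the P-group. P2 was more than 2 log2 units above every other rat, which lay from 5.81 to 6.78. The difference was -0.47 (SE 0.57, FDR 0.0391), the means being 6.36 ± 0.42 (SD, n = 5) and 6.83 ± 1.24 (SD, n = 5). Without P2 the difference was 0.06, and the call was lost without C1, C3, P1, P2, P3 or P4 (FDR 0.0663, 0.0730, 0.0564, 0.749, 0.137 and 0.0670). The mean of 9 variable marker genes of pineal cells and photoreceptors was 8.62 in P2 and from 6.12 to 6.21 in the other 9 rats, and all 9 genes were highest in P2. Of 16 such markers listed, 14 were measured, and the 9 are those that passed the SD filter. They may have passed it only through P2, so their peak in P2 is not independent of the filter. The part of such cells in the value of Cplx3 was not tested. A second probe set of Cplx3 was constant at 6.18.

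**Figure D4:**
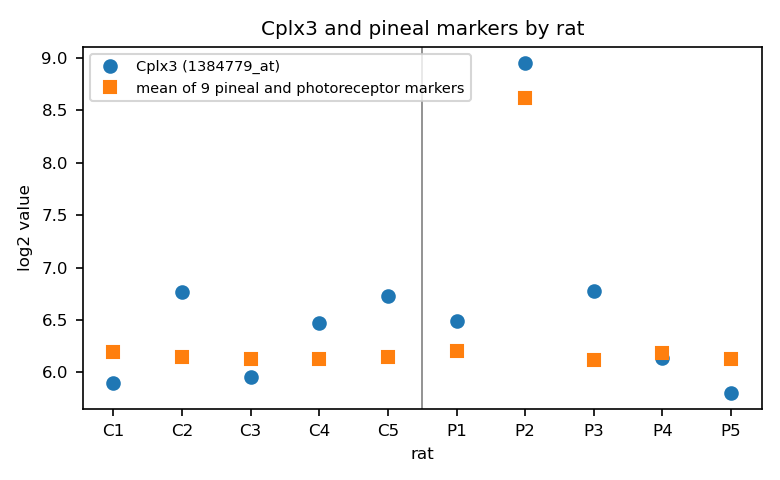
Log2 value of Cplx3 (blue circles) and mean log2 value of 9 pineal and photoreceptor marker genes (orange squares) in rats C1 to C5 (C-group) and P1 to P5 (P-group). The 9 markers are those that passed the SD filter, which they may have done only through P2. Both are highest in P2, at 8.95 and 8.62, and the marker mean is from 6.12 to 6.21 elsewhere.

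The members also varied with each other from rat to rat. For the 210 pairs of variable members, Pearson's correlation over the 10 rats had a median size of 0.534, against 0.472 for pairs of all variable probe sets, and the share of pairs over 0.8 in size was 13.3% against 12.9%. Without C1 the median size for the members was 0.330, and it was not computed for pairs of all variable probe sets. An adjusted p under 0.05 was reached by 40 pairs for Pearson's r, 26 of them positive and 14 negative, and by 12 of these also for Spearman's rho (permutation tests with 100000 draws, two-sided, Benjamini-Hochberg over the 210 pairs). Permutation p-values were computed for pairs of members only, so these counts have no background to be read against. No batch is given in the labels, and correlations within a group of 5 rats were not computed.

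Nsf, Rims1, Sv2b and Syn2, chosen after the values were seen, had a similar order of rats. The brighter variable probe set of Nsf correlated with Rims1 at r = 0.944 (permutation p = 5e-05, adjusted p = 0.00525) and rho = 0.964 (permutation p = 8e-05, adjusted p = 0.0126), and at r = 0.857 without C1 and P1, the rats farthest from its median. With the called probe set of Sv2b it gave r = 0.915 (permutation p = 0.00013, adjusted p = 0.00735) and rho = 0.939 (permutation p = 0.00017, adjusted p = 0.0126), and 0.896 without C1 and P1. With the called probe set of Syn2 it gave r = 0.929 (permutation p = 0.00028, adjusted p = 0.00840) and rho = 0.855 (permutation p = 0.00271, adjusted p = 0.0474), and 0.816 without these rats. In all 4 probe sets C1, C2 and P1 were the 3 highest or among the 4 highest rats, and C5 and P5 were among the lower ones.
Syt17 had another order of rats. Its brighter probe set correlated with the uncalled variable probe set of Syn2 at r = 0.915 (permutation p = 5e-05, adjusted p = 0.00525) and rho = 0.879 (permutation p = 0.00153, adjusted p = 0.0321), and at r = 0.976 without C1 and P4. The 2 variable probe sets of Syn2 correlated less with each other, at r = 0.749 (permutation p = 0.0136, adjusted p = 0.0585) and rho = 0.648 (permutation p = 0.0499, adjusted p = 0.255), and at 0.469 without C1 and P1. Syt7 and Sv2a followed each other over the rats by rank, with rho = 0.939 (permutation p = 0.00018, adjusted p = 0.0126) and r = 0.742 (permutation p = 0.0021, adjusted p = 0.0184), 0.667 without C3 and P3 and 0.921 without C1. Sv2a ran against Pclo, at r = -0.830 (permutation p = 0.00056, adjusted p = 0.0107) and rho = -0.903 (permutation p = 0.0008, adjusted p = 0.0280), and -0.710 without C1 and P1. The relation of Stxbp6 and Rab33b, r = 0.972 (permutation p = 0.00018, adjusted p = 0.00735) and rho = 0.830 (permutation p = 0.00456, adjusted p = 0.0598), was 0.790 without C1 and C3.

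**Figure D5:**
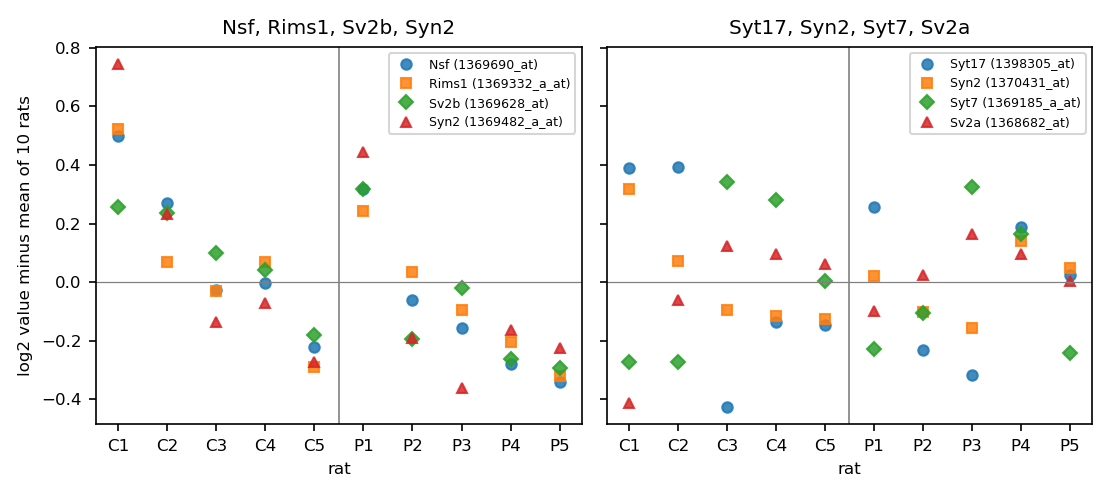
Log2 value minus the mean of the 10 rats for 4 probe sets in each panel, by rat, C1 to C5 (C-group) and P1 to P5 (P-group). On the left, Nsf, Rims1, Sv2b and Syn2 are high in C1 and P1 and low in C5 and P5. On the right, Syt17 and the other probe set of Syn2 are high in C1 and low in C3 and P3, where Syt7 and Sv2a are above their means.

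Other genes of transmitter release were taken from lists of non-member genes. Of 20 measured genes of Rab3 and exocytosis, 5 were variable, with 1 probe set each, all with a difference above 0 and a median of 0.13, and 2 were called higher by rank products. Of all variable probe sets, 68.3% were above 0, with a median of 0.07, and 21.5% were called higher. The 2 called genes of the list were Rab3a, the main vesicle GTPase, at 0.18 (SE 0.08), and Rab27b, which acts beside it, at 0.27 (SE 0.17). Rabphilin (Rph3a), which binds Rab3a, had a difference of 0.13 (SE 0.10) and was not called. Of 18 active zone genes 3 were variable, with 4 probe sets, 3 above 0 and 1 below, and a median of 0.03. The liprin gene Ppfia2 was called higher (difference 0.26, SE 0.17), and the growth cone gene Gap43 (0.02, SE 0.09) and the 2 probe sets of the RIM-binding gene Rimbp2 (-0.18, SE 0.30, and 0.04, SE 0.17) were not. Rab3a lost its call without C1, C2, C3, C4, P2 or P5, Rab27b without C1, C2 or C4, and Ppfia2 without C1, C2, C4, P4 or P5 (FDR up to 0.166, 0.0726 and 0.0918), and without C1 the differences were 0.13, 0.16 and 0.16. Ppfia2, Rab27b and Rab3a were highest in C1 and lowest in P5. Both probe sets of Rimbp2 were lowest in C1, as was the mean of the active zone list (9.38). The brighter probe set of Rab3a was constant.
Of 16 other vesicle proteins and transmitter transporters 3 were variable, Slc17a6, Slc32a1 and Atp6v1a, with differences of -0.05, -0.02 and -0.12 (SE 0.14, 0.09 and 0.14). Of 19 endocytosis genes 4 were variable, with differences from 0.09 to 0.15, Eps15, Sh3gl2 and Pacsin1 having the largest. None of these was called, and no gene of the 4 lists passed limma.
The choroid plexus markers had a mean of 9.01 in C1, 8.37 in C2 and 6.26 in P1, the rats highest for Nsf and Sv2b, and of 8.57 in C5 and 8.54 in P3. Their range was 6.39 to 9.01 in the C-group and 6.26 to 8.54 in the P-group for 15 variable genes of 16 measured, and all 18 variable probe sets of these 15 genes were above 0 and called higher in the C-group, with a median difference of 0.61. Without C1 the median was 0.33 and 8 of the 18 were called, and with any other rat left out it lay from 0.45 to 0.90 with 14 to 18 called. These calls have the same direction as those of Nsf, Sv2b, Syn2 and Stxbp3 and a larger median than any of those differences, and their part in the values of the members was not tested. The hippocampal neuron list had 18 variable probe sets, 13 above 0 and 5 below, with a median of 0.09. Of these 18, 5 were called higher and 1 lower, against 21.5% and 4.37% of all variable probe sets. The higher ones were 3 of the zinc finger gene Zbtb20 (differences 0.16, 0.24 and 0.30) and 1 each of the cytoskeletal genes Map2 (0.20) and Nefl (0.18). Neurod6 was called lower (-0.25). Without C1, none of the 18 was called higher and 1 was called lower. Of the variable probe sets of the glial and interneuron lists, 2 of 8 and 2 of 6 were called higher, against 21.5% of all. None of them was called higher without C1, and none of the interneuron list without C2, C4, C5, P2 or P5. Without C2 or C5, 1 of the glial list was called higher. Of the 10 variable probe sets of the pineal and photoreceptor list 6 were called lower, against 4.37% of all, and none without P2. The mean of 7 variable glial genes was from 10.01 to 10.09 in the C-group and from 9.92 to 10.02 in the P-group, and that of 10 hippocampal neuron genes from 9.42 to 9.61 and from 9.39 to 9.55. For 6 interneuron genes it was from 9.07 to 9.17 and from 9.002 to 9.19, in the C-group and P-group.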

How the data were processed

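Values as deposited are on the log2 scale, 1 per probe set and array, after normalization and summary by qFARMS, which the authors ran in R 2.7.2. They labeled cRNA from 100 ng of total RNA per rat, and no genome build is given in the sources used here. Arrays give no read depth, and 5 rats per group limit the precision. The limma p-values weigh a difference against the spread among arrays of the same diet, and the correlation p-values come from permuting the rats. The rank products FDR comes from permuting values within arrays.

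Probe sets were named through the annotation of the array platform. All 110 members had a gene identifier in the RefSeq table of GRCr8, with no symbol differing. No array columns were identical.

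Rank products was run unpaired from the 25 differences between groups with 100 permutations within arrays (Python 3.11.15 with scipy 1.17.1, numpy 2.4.6 and pandas 2.3.3). limma 3.58.1 in R 4.3.3 (lmFit, eBayes, Benjamini-Hochberg over all 31042 probe sets) gave standard errors and adjusted p-values. Both were run on simulated arrays with known differences and noise drawn separately for each probe set. A rat standing apart in many probe sets, as C1 did, was thus not simulated. The simulation therefore does not show how either method behaves in that case. False calls by rank products were not counted in the simulation. The members and lists were chosen with earlier results of these data known, and the correlations and printed promoters after the values were seen. Values by rat are given for members called by rank products, the 15 with the largest difference and the 5 with the largest SD, and for Syt17, added after its values were seen. Alternatives changed the pairing, normalization, filter, random draw, members, variance model and arrays.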

Additional observations from a re-analysis of the deposited data

Results flagged for a closer look

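Of the 42 groups of 5 rats tested, 21 members in each diet, 2 held a rat whose gap to its nearest neighbor took up an unusually large part of the range of the group. Chance gives such a gap in about 1 of 20 groups. For Stxbp6, C1 was at 8.51 and the other 4 rats of the C-group from 9.88 to 10.33, a gap of 0.751 of the range. For the called probe set of Syn2, P1 was at 9.76 and the other 4 rats of the P-group from 8.95 to 9.15, a gap of 0.754 of the range.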

How the results depend on the processing

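No probe set passed limma under any alternative, among the members or over all probe sets. At an unadjusted p under 0.05, limma counted 915 of all probe sets, and under the alternatives from 26 (variable probe sets alone) and 50 (arrays centred on the median) to 1792 (without C3). Of the members it counted 1, and from 0 to 9 under the alternatives. With the replicate block, rank products called 8 members higher and 3 lower, and limma none. An unadjusted limma p under 0.05 was reached by 9 of the 110 members, against 1728 of all 31042 probe sets. Of the 9, 4 were variable (both variable probe sets of Nsf, Syt1 and Pclo). The share of all probe sets called by rank products with the block, above the median level or with 1 rat left out is not given here. The counts of members called in those settings thus have no background. The same-numbered rats did not deviate together in each pair (correlations of 0.277, -0.011, -0.389, 0.485 and 0.451), and 2 of the 5 C-group rats correlated best with their own number. This check cannot settle whether the numbers mark pairs. The labels state no pairing, and the main analysis did not take the numbers as pairs. Rank products called 0 members higher and 0 lower over the variable probe sets alone, and likewise over probe sets above the median level. With 1 rat left out, 0 to 8 members were called higher and 0 to 2 lower, and the difference of Cplx3 ran from -0.73 to 0.0597, turning its direction without P2. The median difference of the variable members ran from 0.02 to 0.11 in these sets. Of the 21 members, 10 kept the sign of their difference in all 10 sets. Neither normalization turned the sign of any of the 21, and leaving out the Rab GTPases or drawing a second random seed changed no count of calls by over 1.5 times. The causes were not tested. The number of arrays and the constant probe sets limit what can be seen of 56 member genes.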
